A study of Rattus norvegicus with 9 samples.

Results

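The dystrophin-glycoprotein complex was followed through 8 of its genes: Dmd, Utrn, Dag1, Sgca, Sgcb, Sgcd, Sntb1 and Dtna. They were found by gene symbol among the 30518 rows of the deposited tables, each symbol had a single row, and all 8 were among the 16256 genes kept by the filter on low counts. The 9 RNA sequencing libraries came from the pubococcygeus, a skeletal muscle that supports the pelvic organs, in female Sprague-Dawley rats. Of 24 rats, 8 were assigned at random to each of 3 groups, and each group is covered by 3 libraries. Blank rats had no surgery and no treatment. SUI rats modelled stress urinary incontinence: they were ovariectomised on both sides, and vaginal distension was applied for 4 h with a weight of 120 g hung from an 8 Fr catheter whose balloon held 3 mL of saline. Stimulated rats had the same model and, from 1 week later, transvaginal pelvic floor electrical stimulation (PFES) in daily sessions of 30 min, 5 per week for 2 weeks (200 µs monophasic square pulses at 50 Hz and 20 mA). No group was operated on without the injury or handled without current, so operation and injury, and current and handling, cannot be told apart. Which rats, or pools of rats, gave the libraries is not stated, so a p-value reflects library-to-library spread, which may be technical. The sample titles describe the full model for the SUI group, although its library names read sham, and the titles were followed.

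The complex ties the cytoskeleton of a muscle fibre to the basement membrane around it. Inside the fibre, dystrophin binds actin and the tail of beta-dystroglycan, while alpha-dystroglycan outside carries a long glycan that binds laminin. The sarcoglycans steady this link in the membrane, and syntrophins and dystrobrevins hold signalling proteins such as neuronal nitric oxide synthase at its inner face. Loss of dystrophin or of a sarcoglycan causes muscular dystrophy, in which fibres tear under load, and utrophin, a close relative of dystrophin, is found in adult fibres mainly at the neuromuscular junction.

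Total counts ran from 50833480 to 147650284 per library, and 3 counts, taken as the floor of detection, correspond to 0.021 to 0.0794 CPM (counts scaled to library size, adjusted by TMM factors that correct for library composition). Blank replicate 1 was the shallowest library, with 32.9% of its counts from the mitochondrial genome against 13.4% to 17.7% in the other 8, and the shortest of 5 equal classes of genes lay 0.43 log2 units below the 9-library mean in it. The 6 muscle fibre markers (Ckm, Acta1, Ttn, Myh7, Myh2 and Tnnt3) summed to between 101200 and 196800 CPM in every library. That is the level of a muscle sample, and 6 of 6 had counts.

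The 8 genes differed widely in level per gene length. As deposited FPKM (fragments scaled by transcript length and library size), mean ± SD over the 9 libraries, Sgca stood at 59.8 ± 18 and Sgcb at 55.2 ± 6.24, followed by Dag1 at 33.4 ± 4.52 and Dtna at 17.8 ± 4.43. Dmd was at 6.92 ± 1.22 FPKM, Sgcd at 4.80 ± 1.75, Utrn at 1.35 ± 0.401 and Sntb1 at 0.531 ± 0.447. Neighbours in this order were separate over all libraries for Sgcb over Dag1, Dtna over Dmd and Sgcd over Utrn. The ranges of Sgca and Sgcb, of Dag1 and Dtna, of Dmd and Sgcd and of Utrn and Sntb1 overlapped, although within a library Dag1 exceeded Dtna in 9 of 9 and the other 3 pairs kept their order in 8 of 9. Sntb2, the beta-2 syntrophin and a close relative of Sntb1, was at 0.10 ± 0.0603 FPKM.

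**Figure D1:**
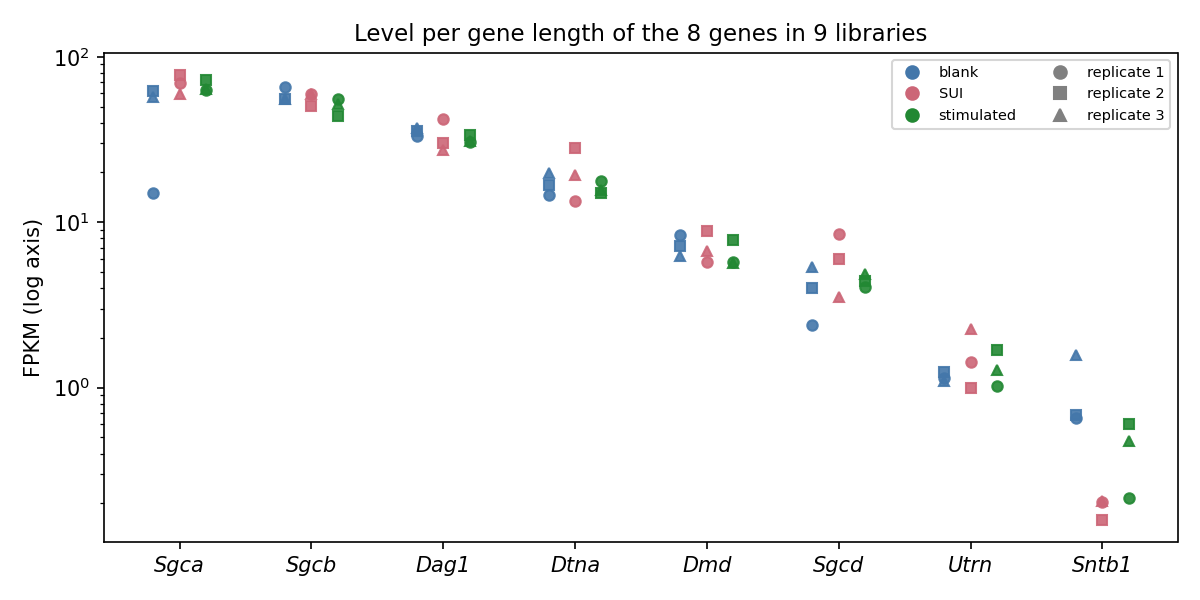
Deposited FPKM (log axis) of the 8 genes, ordered by mean, with 1 point per library. Colours give the group and shapes the replicate number. Sgca in blank replicate 1 lies at 15.0 FPKM, below the 57.0 to 77.3 of its other libraries, and Sntb1 is lowest in the SUI libraries.

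None of the 8 genes passed the threshold of 0.05 in any of the 3 comparisons with edgeR's quasi-likelihood test, adjusted by Benjamini-Hochberg over all 16256 genes. The shares of all genes that did were 0% in SUI over blank, 0.0123% in stimulated over SUI and 0.00615% in stimulated over blank. DESeq2 called 1 of the 8, Sntb1, in SUI over blank, and 0 in the other comparisons, while it called 1.02%, 1.11% and 0.144% of all genes it gave an adjusted p. At an unadjusted edgeR p under 0.05, 1 of the 8 genes stood in each comparison, and it was Sntb1 each time. The 8 genes were chosen with earlier results of these data known, so their counts are a description. Of all genes, 8.18%, 8% and 3.77% did so, and 5.34%, 5.23% and 1.81% in the direction of Sntb1. In SUI over blank 3 of the 8 log2 fold changes were positive, with a median of -0.20, beside a median of 0.0082 over all genes. In stimulated over SUI 4 were positive and the median was 0.032 (all genes 0.025), and in stimulated over blank 3 were positive and the median was -0.16 (all genes 0.043).

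The CPM of the 3 libraries of each group did not overlap for 2 of the 8 genes in each comparison, beside 15.1%, 18.8% and 12.6% of all genes. These were Dag1 and Sntb1 in SUI over blank, both lower, Utrn and Sntb1 in stimulated over SUI, both higher, and Sgca (higher) and Sntb1 (lower) in stimulated over blank. By direction, the ranges were apart for 7.34% of all genes higher and 7.77% lower in SUI over blank, 9.52% and 9.28% in stimulated over SUI, and 7.9% and 4.72% in stimulated over blank. The comparisons share libraries, so a low SUI value enters both SUI over blank and stimulated over SUI.

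**Figure D2:**
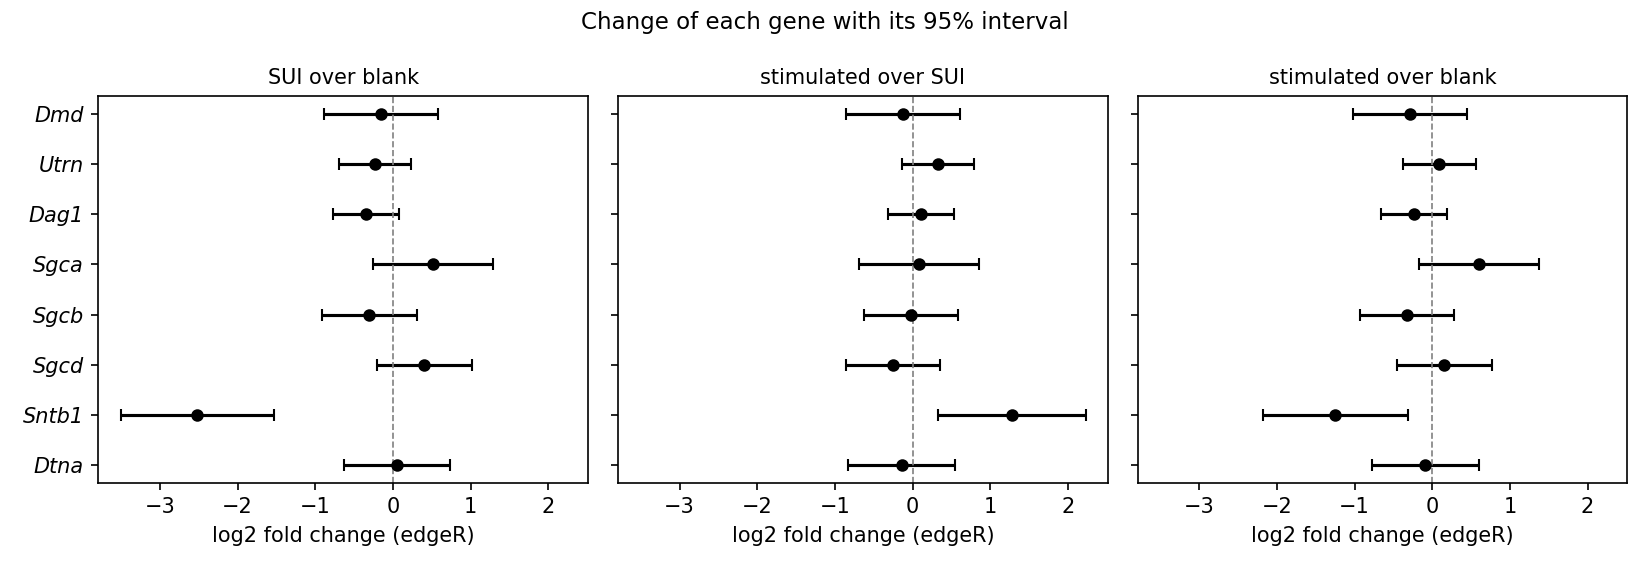
Log2 fold change (edgeR) of each gene in the 3 comparisons, with bars for the 95% interval. The intervals of Sntb1 leave out 0 in every panel, and those of the other 7 genes include it.

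Sntb1 encodes beta-1 syntrophin, an adaptor that binds dystrophin, utrophin and dystrobrevin and gathers channels and signalling proteins at the membrane (chromosome 7, 87060926 to 87329315, minus strand, mRatBN7.2). It measured 2.73, 1.94 and 4.55 CPM in the blank libraries, 0.478, 0.479 and 0.647 in SUI and 0.747, 1.68 and 1.46 after stimulation. Every blank library was above every stimulated one, and every stimulated one above every SUI one. The share of all genes with such an order over 3 groups was not counted. The raw counts behind these values were 53 to 63 in SUI, 98 to 240 after stimulation and 103 to 461 in blank, all above the floor of 3 counts.

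From blank to SUI the mean went from 3.07 ± 1.34 to 0.535 ± 0.0975 CPM (SD, n = 3), which is 5.74-fold lower in the fit, with a log2 fold change of -2.52 ± 0.44 (SE, 95% interval -3.51 to -1.54). The unadjusted edgeR p was 0.000214, rank 16 of 16256 genes, and the edgeR adjusted p was 0.2. Because Sntb1 is among genes chosen with earlier results of these data known, this p and rank are not independent support. Over 20 alternatives the adjusted p lay between 1.78e-05, with DESeq2, and 0.659. Stimulated muscle, at 1.30 ± 0.488 CPM, was 2.42-fold above SUI (1.28 ± 0.43, edgeR adjusted p = 0.509) and 2.37-fold below blank (-1.25 ± 0.42, edgeR adjusted p = 0.898). On the log2(FPKM + 1) scale, which understates the change of a gene at this level, the values were -0.70, 0.26 and -0.44. Without blank replicate 3, the highest library, stimulated over blank was -0.84.

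The fibroblast markers Pdgfra, Dcn, Lum, Col1a1, Pi16 and Mfap5 had log2 fold changes of the same sign as Sntb1 in both comparisons with SUI. Their sum was 776 to 863 CPM in blank, 349 to 522 in SUI and 391 to 1540 after stimulation, with 6 of 6 negative in SUI over blank, 6 of 6 positive in stimulated over SUI and 0 of 6 at a count of 0. Stimulated replicate 1, at 391 CPM, lay inside the SUI range. In stimulated over blank, where Sntb1 was lower, 5 of 6 fibroblast markers were positive, with a median of 0.15. Schwann cell markers summed to 95.5 to 187 CPM in blank, 43.3 to 118 in SUI and 84.7 to 146 after stimulation, with 5 of 6 negative and then 5 of 6 positive. Endothelial markers, at 147 to 297 CPM in blank, 170 to 218 in SUI and 227 to 344 after stimulation, overlapped between blank and SUI and not between SUI and stimulated, where 5 of 6 were positive. Leukocyte markers were at 110.0 to 154 CPM in blank and 76.5 to 99.8 in SUI, without overlap and with 4 of 5 negative, and at 51.6 to 270 after stimulation. Smooth muscle markers other than Des summed to 123 to 482 CPM in blank, 102 to 159 in SUI and 111 to 183 after stimulation, with 5 of 5 negative in SUI over blank and 5 of 5 positive in stimulated over SUI. The part of these cells in the Sntb1 values was not tested, and in whole muscle fewer cells of a type and less RNA per cell cannot be told apart.

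Dtna encodes alpha-dystrobrevin, the dystrophin relative that carries syntrophins in the complex (chromosome 18, 14587852 to 14918457, plus strand). It measured 69.2, 58.3 and 67.9 CPM in blank, 37.8, 94.3 and 70.5 in SUI and 75.0, 50.9 and 57.7 after stimulation. The SUI libraries held both the lowest and the highest value, and all groups overlapped. The log2 fold change was 0.053 ± 0.31 in SUI over blank (95% interval -0.63 to 0.74), -0.14 ± 0.31 in stimulated over SUI and -0.089 ± 0.31 in stimulated over blank (edgeR adjusted p = 0.959, 0.961 and 0.967).

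**Figure D3:**
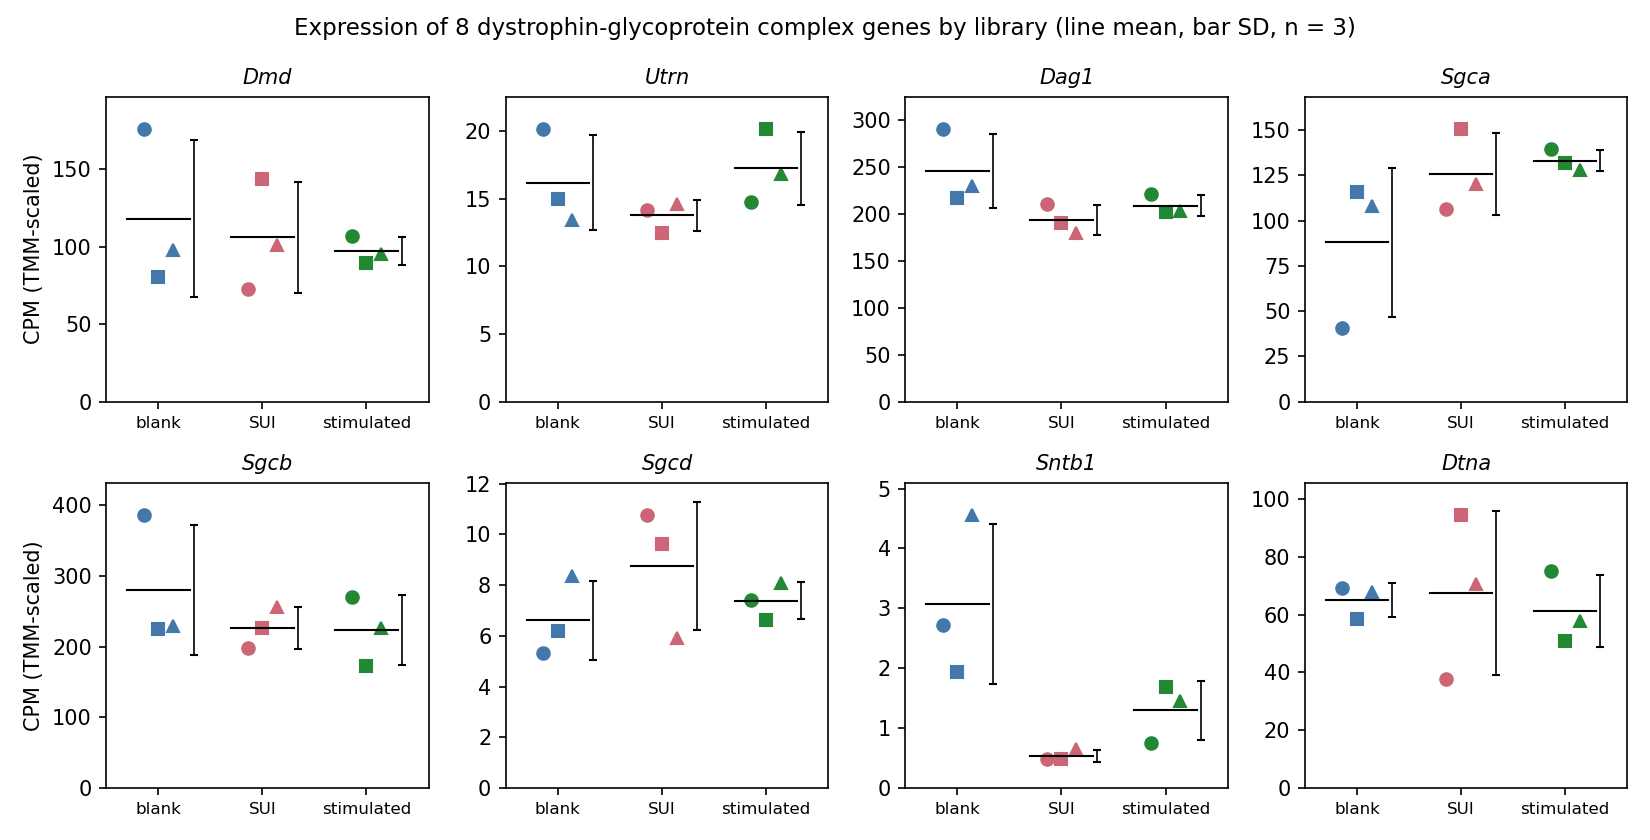
CPM of each gene by group, with circles for replicate 1, squares for replicate 2 and triangles for replicate 3, lines at the mean and bars of 1 SD (n = 3). Sntb1 falls into 3 separate ranges, while Dmd spreads most in blank and SUI and Dtna in SUI. Blank replicate 1 is the highest library for Dmd, Utrn, Dag1 and Sgcb and the lowest for Sgca and Sgcd.

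Dmd encodes dystrophin, the rod that links actin to dystroglycan, and its row lies on chromosome X (47272331 to 49504207, plus strand, mRatBN7.2). It measured 176, 80.5 and 98.3 CPM in blank, 73.1, 144 and 101 in SUI and 107, 89.3 and 95.6 after stimulation. All 3 groups overlapped, and the widest spread was inside the blank and SUI groups. The log2 fold change was -0.16 ± 0.33 in SUI over blank (95% interval -0.89 to 0.58), -0.13 ± 0.33 in stimulated over SUI and -0.28 ± 0.33 in stimulated over blank (edgeR adjusted p = 0.88, 0.973 and 0.905). The value of SUI over blank took the other sign without blank replicate 1, at 0.25.

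Utrn encodes utrophin (chromosome 1, 6722594 to 6887171, minus strand), which can take the place of dystrophin along the fibre when it is raised. It measured 20.1, 15.0 and 13.5 CPM in blank, 14.2, 12.5 and 14.6 in SUI and 14.7, 20.1 and 16.9 after stimulation. Stimulated libraries lay just above the SUI range, with 14.7 against 14.6 at the border, and both groups overlapped with blank. Stimulated over SUI was 0.33 ± 0.21 (95% interval -0.14 to 0.79, edgeR adjusted p = 0.754) and SUI over blank -0.23 ± 0.21 (-0.70 to 0.23, edgeR adjusted p = 0.733). Both took the other sign on the FPKM scale, where SUI over blank was 0.22 and stimulated over SUI -0.11 with a pseudocount of 1. That fit has no TMM scaling, and its medians over all genes were 0.088 and -0.045.

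The count and FPKM tables together imply the transcript length that the authors' estimate gave a gene in each library. For Utrn it was 12.5 to 13.0 kb in 8 libraries and 6.27 kb in SUI replicate 3, where its FPKM of 2.25 was the highest of all while its CPM was 14.6. For Dmd it was 14.7 to 16.6 kb in 7 libraries, 11.9 kb in blank replicate 2 and 12.5 kb in stimulated replicate 2. For the other 6 genes the longest implied length was between 1.03 and 1.117 times the shortest. FPKM divides by this length and CPM does not.

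**Figure D4:**
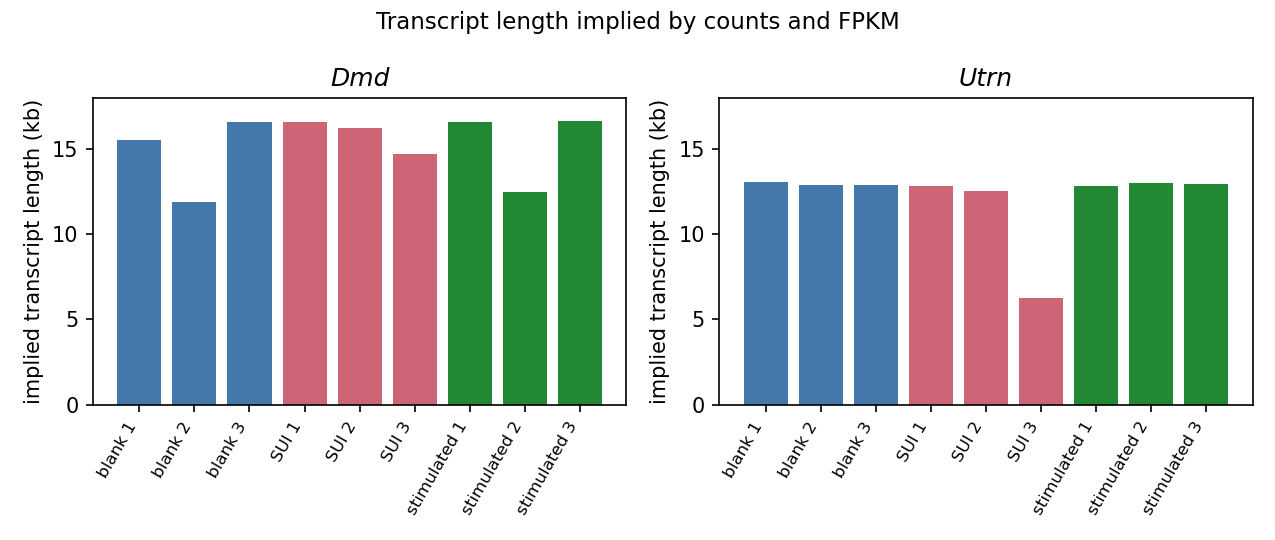
Transcript length in kb implied by counts and FPKM for Dmd and Utrn, with 1 bar per library coloured by group. Utrn in SUI replicate 3 stands at 6.27 kb against 12.5 kb or more elsewhere, and Dmd is shortest in blank replicate 2 and stimulated replicate 2.

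The ratio of Utrn to Dmd within a library was 0.136, 0.172 and 0.176 in blank, 0.250, 0.113 and 0.338 in SUI and 0.178, 0.216 and 0.227 after stimulation, as FPKM. On this scale stimulated libraries lay above blank, with 0.178 against 0.176 at the border, and SUI spread across both. The SUI value of 0.338 is that of replicate 3, where the implied Utrn length was 6.27 kb. The implied Dmd length was 11.9 kb in blank replicate 2, with a ratio of 0.172, and 12.5 kb in stimulated replicate 2, with 0.216. The part of these lengths in the FPKM ratios and their order was not tested. The mean log2 ratio differed by 0.36 between stimulated and blank (two-sided exact permutation p = 0.1, the smallest that 3 against 3 allows), by 0.40 between SUI and blank (exact permutation p = 0.5) and by -0.042 between stimulated and SUI (exact permutation p = 1). As a ratio of counts the same differences were 0.30 (exact permutation p = 0.4), -0.088 (exact permutation p = 1) and 0.39 (exact permutation p = 0.5). The count ratios were 0.114, 0.186 and 0.137 in blank, 0.194, 0.0869 and 0.144 in SUI and 0.138, 0.226 and 0.176 after stimulation. Stimulated and blank overlapped there.

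Full-length dystrophin starts at the 5′ end of the gene, and short products that lack most of the rod start near its 3′ end, so a single Dmd count adds transcripts from promoters that lie far apart. The 250 bases before 2 of the 3 Dmd starts of RefSeq (build GRCr8) are shown because the implied length of Dmd differed between libraries, with the Utrn start beside them as the paralogue. The starts shown are 2072927 bases apart, and the remaining entry lies 31 bases beyond the second of them. Capitals mark matches, on either strand, to the CArG box, the E-box (CANNTG), the MEF2 site, the MCAT element (CATTCC), the N-box (CCGGAA), the GC box (GGGCGG) and the TATA box (TATAAA).
Dmd upstream start, chrX:51205836-51206085, plus strand: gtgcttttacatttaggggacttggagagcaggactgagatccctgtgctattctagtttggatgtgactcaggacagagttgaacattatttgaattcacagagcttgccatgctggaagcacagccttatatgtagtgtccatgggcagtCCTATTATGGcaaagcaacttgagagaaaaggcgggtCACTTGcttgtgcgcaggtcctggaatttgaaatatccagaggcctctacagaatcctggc
Dmd downstream start, chrX:53278763-53279012, plus strand: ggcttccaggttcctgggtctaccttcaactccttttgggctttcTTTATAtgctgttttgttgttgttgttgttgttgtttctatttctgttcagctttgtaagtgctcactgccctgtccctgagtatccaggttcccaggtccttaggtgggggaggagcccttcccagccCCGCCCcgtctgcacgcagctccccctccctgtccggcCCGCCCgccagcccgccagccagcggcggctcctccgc
Utrn start, chr1:9044488-9044737, minus strand: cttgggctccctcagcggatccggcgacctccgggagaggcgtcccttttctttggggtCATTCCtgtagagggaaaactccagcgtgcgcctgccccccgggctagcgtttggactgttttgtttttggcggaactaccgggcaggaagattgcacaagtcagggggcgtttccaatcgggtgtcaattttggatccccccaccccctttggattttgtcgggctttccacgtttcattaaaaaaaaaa
The upstream Dmd window held a CArG box, bound by serum response factor in muscle genes, that begins 98 bases before the start, and an E-box, the motif of the myogenic regulators, that begins 61 bases before it. Of 33469 windows of this length in the table, 1.5% held a CArG box and 65.5% an E-box. The downstream Dmd window held neither, but 2 GC boxes (in 30.5% of windows) and a match to the TATA box (12.9%). The GC boxes begin 76 and 38 bases before the start and the TATA match 205 bases before it, all on the opposite strand. The GC content of this window was 59.6% against 46.8% upstream and a median of 51.2% over all windows. The Utrn window held an MCAT element (12.1% of windows) and no other of the motifs searched, among them the N-box (12.6%) and the MEF2 site (1.68%). These matches describe letters in these windows and not binding. Which Dmd start was used in each library was not measured, so its part in the implied length was not tested. The table had entries for 6 of the 8 genes.

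Dag1 encodes both dystroglycans, cut from 1 precursor, and so the laminin receptor at the centre of the complex (chromosome 8, 108890929 to 108952325, minus strand). It measured 290, 217 and 229 CPM in blank, 210, 190 and 180 in SUI and 221, 202 and 203 after stimulation. All SUI libraries lay below all blank ones, while stimulated libraries overlapped with both. The log2 fold change was -0.34 ± 0.19 in SUI over blank (95% interval -0.77 to 0.083), 0.11 ± 0.19 in stimulated over SUI and -0.23 ± 0.19 in stimulated over blank (edgeR adjusted p = 0.617, 0.946 and 0.898). Without blank replicate 1, SUI over blank was -0.19.

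The sarcoglycans are small membrane proteins that assemble as a unit beside dystroglycan. Sgca, alpha-sarcoglycan (chromosome 10, 79908738 to 79922813, minus strand), is restricted to striated muscle and measured 40.6, 116 and 108 CPM in blank, 106, 150 and 120 in SUI and 139, 132 and 128 after stimulation. Blank replicate 1 was far below the other 8 libraries, which lay between 106 and 150 CPM. Sgca was 0.51 ± 0.35 in SUI over blank and 0.60 ± 0.35 in stimulated over blank (edgeR adjusted p = 0.665 and 0.898), and 0.18 and 0.24 without blank replicate 1. Stimulated over SUI was 0.085 ± 0.34 (95% interval -0.69 to 0.86). Sgca is a short transcript, at an implied 1.98 kb, and the low mean of short genes in blank replicate 1 is given above. A fit with length trends removed was among 20 alternatives. Over these, Sgca ranged from 0.18 to 0.86 in SUI over blank and from 0.24 to 0.84 in stimulated over blank. The part of the low mean of short genes in the Sgca value was not tested separately.

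Sgcb, beta-sarcoglycan (chromosome 14, 34563608 to 34578583, plus strand), measured 386, 225 and 229 CPM in blank, 198, 226 and 256 in SUI and 271, 173 and 226 after stimulation. Blank replicate 1 was the highest and the groups overlapped. SUI over blank was -0.30 ± 0.27 (95% interval -0.92 to 0.31) and stimulated over SUI -0.021 ± 0.27 (-0.63 to 0.59), with edgeR adjusted p = 0.733 and 0.995. Sgcd, delta-sarcoglycan (chromosome 10, 31280511 to 31724840, minus strand), which is also made by smooth muscle, measured 5.32, 6.17 and 8.34 CPM in blank, 10.7, 9.63 and 5.91 in SUI and 7.42, 6.63 and 8.10 after stimulation. SUI held the 2 highest libraries and overlapped with both other groups. SUI over blank was 0.40 ± 0.27 (95% interval -0.20 to 1.01) and stimulated over SUI -0.25 ± 0.27 (-0.85 to 0.36), with edgeR adjusted p = 0.664 and 0.889.

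The genes around the complex were read as 5 lists, and 0 of their 57 tested members passed the threshold with edgeR in any comparison. The lists were chosen with earlier results of these data known, so their counts are a description. Of the other subunits and cytoplasmic partners, 10 of 12 were tested. At an unadjusted edgeR p under 0.05, 1 was lower and 0 higher in SUI over blank, and 2 were higher and 1 lower in stimulated over SUI, with a median of 0.50 there. All genes had shares of 2.84% higher and 5.34% lower in SUI over blank, and 5.23% higher and 2.77% lower in stimulated over SUI. Sgce, epsilon-sarcoglycan, which stands in for alpha-sarcoglycan outside striated muscle, measured 13.4, 6.72 and 8.86 CPM in blank, 5.75, 5.19 and 4.81 in SUI and 6.73, 10.9 and 8.09 after stimulation. SUI was below both other groups without overlap, at -0.88 ± 0.29 against blank (edgeR adjusted p = 0.549). Sspn, the tetraspanin-like sarcospan bound to the sarcoglycans, was at 43.5, 66.6 and 77.2 CPM in SUI and at 94.8, 102 and 104 after stimulation (0.68 ± 0.23, edgeR adjusted p = 0.513). Nos1, neuronal nitric oxide synthase, went the other way, from 12.9, 14.8 and 5.84 to 7.44, 4.52 and 4.85 CPM (-0.998 ± 0.35, edgeR adjusted p = 0.513), with an overlap through SUI replicate 3. In stimulated over blank the smallest p were those of Cav3, the muscle caveolin, at 0.64 ± 0.29, and Drp2, a dystrophin relative of Schwann cells, at -0.89 ± 0.43.

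Outside the fibre, the list holds 12 genes of dystroglycan ligands and of the laminin receptor integrin alpha7 beta1. All 12 had a positive log2 fold change in stimulated over SUI, with a median of 0.50, and 6 stood at an unadjusted edgeR p under 0.05, all higher. Of all 16256 genes, 8557 were positive, with a median of 0.025, and 5.23% were higher at that p. Because the list was chosen with earlier results of these data known, its counts are not independent support. Hspg2, which encodes perlecan, a heparan sulphate proteoglycan that binds alpha-dystroglycan, measured 105, 103 and 162 CPM in SUI and 214, 278 and 223 after stimulation (0.95 ± 0.26, edgeR adjusted p = 0.425). Lamb1, a laminin beta chain, went from 36.6, 18.3 and 31.2 to 46.2, 90.3 and 60.03 CPM (1.19 ± 0.32, edgeR adjusted p = 0.421). In both genes every stimulated library was above every SUI one. Lama2, the laminin chain of the muscle basement membrane, was at 0.26 ± 0.21, and the integrin genes Itga7 and Itgb1 at 0.10 ± 0.20 and 0.054 ± 0.21. The fibroblast markers, summed above, were highest in stimulated replicate 2, which was also the highest library for Hspg2 and Lamb1. Endothelial markers were also higher, with 5 of 6 positive in stimulated over SUI, a median of 0.60 and no overlap of their sums. The part of either cell type in the matrix values was not tested.

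In SUI over blank the same list had 5 positive and 7 negative members and a median of -0.17. Lamc1, a laminin gamma chain, was at -0.47 ± 0.20 and Lama4, a laminin alpha chain of vessels, at -0.70 ± 0.33 (edgeR adjusted p = 0.6 and 0.608). In stimulated over blank 11 of the 12 were positive and 4 stood at an unadjusted edgeR p under 0.05, all higher, beside 1.96% of all genes higher. Lama5 was at 0.77 ± 0.29 and Hspg2 at 0.66 ± 0.26 (edgeR adjusted p = 0.898 each).

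The enzymes that build the laminin-binding glycan of alpha-dystroglycan had medians near 0, with 16 of 18 tested and values of -0.041 in SUI over blank, -0.029 in stimulated over SUI and 0.032 in stimulated over blank. Of all genes, 8.18%, 8% and 3.77% stood at an unadjusted edgeR p under 0.05 in these comparisons. Of the enzymes, 0 did so in SUI over blank, 1 in stimulated over SUI and 0 in stimulated over blank. That 1 was B4gat1, which adds the glucuronic acid that primes the glycan, at 28.2, 28.3 and 24.1 CPM in SUI and 20.6, 16.6 and 20.2 after stimulation (-0.49 ± 0.21, edgeR adjusted p = 0.604). Pomgnt2, an early glycosyltransferase of the same glycan, was at 0.59 ± 0.29 in stimulated over SUI. B3galnt2, a glycosyltransferase that acts after it, was at -0.45 ± 0.23 in SUI over blank.

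Of the costamere and cytoskeletal linkers, 10 of 11 were tested, with medians of -0.013 in SUI over blank and 0.12 in stimulated over SUI. Ank3, which encodes ankyrin-G, a protein that helps hold dystrophin and dystroglycan at the membrane, measured 139, 72.7 and 94.05 CPM in blank and 40.5, 66.4 and 79.3 in SUI (-0.71 ± 0.30, edgeR adjusted p = 0.591). It was at 0.50 ± 0.30 in stimulated over SUI, with no overlap. Tln1, the integrin-binding talin-1, was at 0.51 ± 0.23 in SUI over blank, Actg1, gamma-actin, at 0.49 ± 0.25 in stimulated over SUI and 0.42 ± 0.25 in stimulated over blank, and Vcl, vinculin, at 0.31 ± 0.22 in stimulated over blank. Desmin and plectin, the intermediate filament of muscle and its anchor, had Des at 0.16 ± 0.24 and Plec at -0.045 ± 0.22 in SUI over blank.

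Of the 9 membrane repair and caveola genes, 1 stood at an unadjusted edgeR p under 0.05 in SUI over blank, 0 in stimulated over SUI and 1 in stimulated over blank, all lower. Of all genes, 5.34%, 2.77% and 1.81% were lower at that p. Anxa1, a calcium-dependent phospholipid-binding annexin, measured 34.2, 30.5 and 43.3 CPM in blank and 22.6, 17.2 and 14.3 in SUI (-0.996 ± 0.33, edgeR adjusted p = 0.549), without overlap. It was at 0.72 ± 0.33 in stimulated over SUI, where its relative Anxa2 was at 0.81 ± 0.44. Cavin4, the muscle cavin of caveolae, was at -0.58 ± 0.28 in SUI over blank and -0.78 ± 0.28 in stimulated over blank, and Cavin1 at 0.41 ± 0.19 in the latter. Dysf, dysferlin, which patches torn membrane, was at 0.14 ± 0.21 in SUI over blank and 0.21 ± 0.21 in stimulated over SUI.

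**Figure D5:**
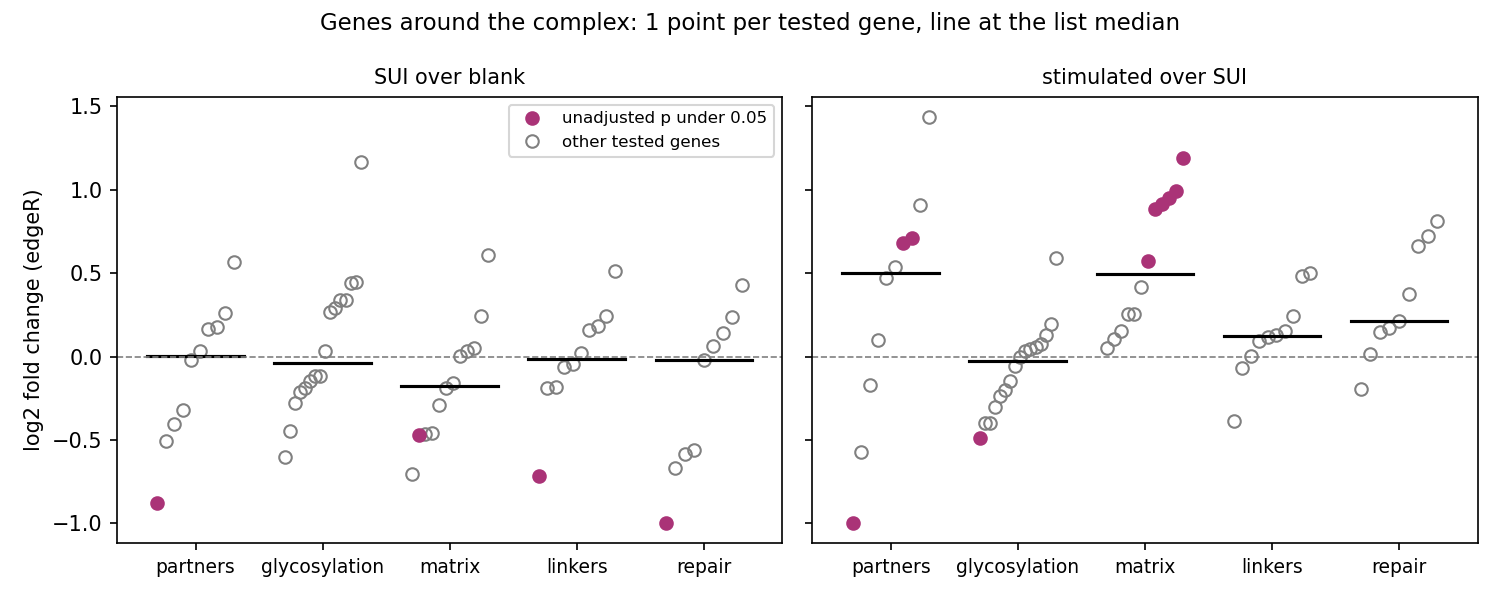
Log2 fold change (edgeR) of every tested gene of the 5 lists in the comparisons with SUI. Filled points have an unadjusted p under 0.05 and lines mark list medians. The filled points of the matrix list in stimulated over SUI are 6 and all positive, while the glycosylation list centres near 0 in both panels.

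The 8 genes did not share 1 pattern over the 9 libraries. The Pearson correlation of log2 CPM, given as a description over 9 libraries that share groups and scaling, was highest for Dmd with Sgcb (0.755) and Dmd with Dtna (0.729) and lowest for Dag1 with Sgca (-0.859). Searching 11267 named genes with a mean CPM of at least 1, the closest to Sntb1 were Vcan, a matrix proteoglycan, at 0.925, the small GTPase gene Rrad at 0.918 and Dpy19l3 at 0.916. The closest to Dmd were Ccdc59, Atp6v1g1 and Mrps17 (0.987 to 0.951), to Utrn Zbtb8a, Spata6 and Mki67 (0.954 to 0.95), to Dag1 Ptpn21, Csgalnact2 and Baz2b (0.986 to 0.968) and to Dtna Snf8, Ankrd28 and Alpk2 (0.981 to 0.971). Of the sarcoglycans, Sgca was closest to Rps16, Enho and Maea (0.989 to 0.988), Sgcb to Setd3, Tab2 and R3hdm2 (0.995 to 0.985) and Sgcd to Nfkb1, Ints3 and Strip2 (0.929 to 0.919). Blank replicate 1 was the highest or lowest library for 6 of the 8 genes, all but Sntb1 and Dtna. The correlations of these 6 may lean on that library, which was not tested.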

How the data were processed

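Transcripts of rat pubococcygeus muscle were sequenced in 9 libraries. The build is mRatBN7.2 and the tools RSEM 1.3.1, Bowtie2 and DESeq2 1.4.5, per the submitters' processing notes. Strand setting and annotation version are not given in the sources used here. Per the file headers, the authors deposited 1 table of expected counts per gene, which holds whole numbers and was tested unrounded, and 1 table of FPKM, which is scaled by transcript length and depth. Groups and replicate numbers came from the sample titles.

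Counts were filtered with filterByExpr, scaled by TMM and tested with edgeR 4.0.16 (R 4.3.3, robust quasi-likelihood F test, all 9 libraries in one fit, Benjamini-Hochberg at 0.05). A standard error is the absolute log2 fold change divided by the root of F, and 95% intervals use the total degrees of freedom of the test. The Utrn to Dmd ratio was tested by exact permutation (scipy 1.17.1). Implied length is the count over FPKM and total count. Alternatives were DESeq2 size factors, library totals, 2 other filters, DESeq2 1.42.0, limma 3.58.1 (voom with sample weights, and log2 FPKM with pseudocounts of 1 and 0.1), fits on 6 libraries, a replicate block, length trends removed, and each library left out. With library totals only, the all-gene median stood at 0.19 in SUI over blank, -0.11 in stimulated over SUI and 0.088 in stimulated over blank, and values are relative to the TMM scale. The fits were tested on simulated data with 200 changed genes.

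The members and gene lists were chosen with earlier results of these data known. Named genes are the 8 members, the 2 genes of each list with the smallest p in each comparison and the 3 genes most like each member. Lama2, Itga7, Itgb1, Des, Plec, Dysf and Sntb2 were added after their values were seen. Some genes that the rule names are not reported here. Marker lists for fibroblasts, endothelium, Schwann cells, smooth muscle, leukocytes, adipocytes and the neuromuscular junction were also summed. The smooth muscle list was summed without Des, which skeletal muscle also expresses and which made up most of its sum, a choice made after its values were seen. Adipocyte markers summed to 56.8 to 110 CPM in blank, 60.2 to 128 in SUI and 43.4 to 177 after stimulation, and junction markers to 87.5 to 122, 48.2 to 142 and 107 to 151.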

Additional observations from a re-analysis of the deposited data

How the results depend on the processing

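Of 480 values of the 8 genes under the alternatives, 449 kept their direction and side of the threshold, 30 changed sign and 1 newly passed. That 1 was Sntb1 in SUI over blank with DESeq2 (-2.54, DESeq2 adjusted p = 1.78e-05), where the members called became 1, while the other members counts stayed at 0. None of the 60 Sntb1 values changed sign, and all 30 changes were in results of under 0.35 in size, none of them called. The cause of these changes was not tested.

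In SUI over blank, Dmd became 0.072 with library totals, 0.30 with voom and 0.045 with length trends removed, Sgcb 0.011 with voom, and Utrn 0.22 and 0.33 on log2 FPKM with pseudocounts of 1 and 0.1. In stimulated over SUI, library totals gave Dag1 -0.042 and Sgca -0.034, voom gave Sgca -0.0030, and log2 FPKM gave Utrn -0.11 and -0.17, Dag1 -0.038 and -0.038 and Sgca -0.050 and -0.050. In stimulated over blank, Dmd was 0.069 with voom. The log2 FPKM fits have no TMM scaling. Their all-gene medians were 0.088 and 0.19 in SUI over blank and -0.045 and -0.094 in stimulated over SUI. Leaving out 1 library, SUI over blank ranged from -0.46 to 0.25 for Dmd, -0.44 to 0.0067 for Sgcb and -0.29 to 0.33 for Dtna; stimulated over SUI from -0.33 to 0.15 for Dmd, -0.014 to 0.23 for Sgca, -0.18 to 0.14 for Sgcb and -0.42 to 0.17 for Dtna; and stimulated over blank from -0.49 to 0.10 for Dmd, -0.033 to 0.26 for Utrn and -0.26 to 0.029 for Dtna.

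The Utrn to Dmd difference changed sign as counts in SUI over blank (-0.088) and stimulated over SUI (0.39), and leaving out 1 library gave 0.068 to 0.86, -0.50 to 0.29 and 0.24 to 0.47 in the 3 comparisons. Genes called over the whole table were 0, 2 and 1, and DESeq2 called 182, 198 and 27. In stimulated over SUI, library totals called 1, voom 48, and the fit on 6 libraries and both log2 FPKM fits 0. In stimulated over blank, the fit on 6 libraries and log2(FPKM + 1) called 0. Leaving out 1 library gave 0 to 1, 0 to 3 and 0 to 1 calls. Genes at an unadjusted p under 0.05 were 1329, 1300 and 613. With voom they were 2047, 2988 and 1647, and in stimulated over blank 1011 with DESeq2, 353 with library totals and 404 on log2(FPKM + 0.1). Leaving out 1 library gave 1033 to 1930, 754 to 2224 and 386 to 1161.

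Same-numbered libraries did not deviate together (correlations of -0.218 to 0.113), and not every library matched its own number best, so the numbers were not taken as pairs. With the replicate block, 0, 1 and 0 genes were called, and none of the 8.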
